A study of Mus musculus with 23 samples.

Results

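Iron that has entered a cell is stored in ferritin or exported through ferroportin, and 8 genes of this storage and export machinery were followed in hippocampal microglia. They were taken by symbol from the 18876 genes of the deposited count table and are the ferritin heavy and light chains (*Fth1* and *Ftl1*), the ferritinophagy receptor *Ncoa4*, the iron chaperones *Pcbp1* and *Pcbp2*, ferroportin (*Slc40a1*) and the ferroxidases ceruloplasmin (*Cp*) and hephaestin (*Heph*). Each symbol matched 1 row of the table, and all 8 genes passed the filter of at least 5 counts in at least 3 samples. In APP/PS1 compared to WT microglia, both ferritin chains were higher and ferroportin was lower, with and without *Slc11a2* knockdown, and no member passed the threshold between knockdown and Control cells with all libraries in the fit. Without 1 library, Slc11a2KD APP/PS1 4, *Ncoa4* and *Cp* passed as lower with knockdown in APP/PS1, where 16.4% of all genes tested passed in either direction.

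Ferritin is a protein shell made of heavy and light chains. The heavy chain oxidizes ferrous iron, and the light chain favours the growth of the mineral core. PCBP1 and PCBP2 hand ferrous iron to ferritin, and NCOA4 carries ferritin to the lysosome, where the iron is set free again. Ferroportin moves ferrous iron out of the cell, and the copper-containing enzymes ceruloplasmin and hephaestin oxidize it on the outside. When cellular iron is low, the iron regulatory proteins, encoded by *Aco1* and *Ireb2*, bind a stem-loop called the iron-responsive element (IRE) in the 5′ untranslated region of the ferritin and ferroportin mRNAs and hold back their translation. The level of these mRNAs can therefore differ from the level of the proteins, which was not measured in these libraries.

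The IRE is shown for the 3 members that carry one, because it is the sequence through which iron acts on these mRNAs and because these are the members with the largest differences between the Control genotypes below. The element was searched in the 5′ untranslated regions of 20696 canonical coding transcripts of GENCODE on GRCm39 as an unpaired C, 5 bases, the loop CAGTGN and 5 bases that pair with the first 5. It was found in 24 of them, 0.116%, while the loop letters alone were in 29.1%. The 27 bases are given 5′ to 3′ on the transcribed strand, as DNA, with the loop in capitals.

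Fth1 (chr19:9960097-9960123, plus strand): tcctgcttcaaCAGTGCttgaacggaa

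Ftl1 (chr7:45109204-45109230, minus strand): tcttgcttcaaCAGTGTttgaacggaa

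Slc40a1 (chr1:45964626-45964652, minus strand): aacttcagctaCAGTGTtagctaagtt

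The transcripts of *Ncoa4*, *Pcbp1*, *Pcbp2*, *Cp* and *Heph* held no match to this pattern in that region. In the RefSeq promoter windows of build GRCm38.p6, which run from 250 bases before to 50 bases after a start site, 6 members had 11 windows, and *Slc40a1* and *Heph* were not searched. The letters TGACNNNGC, the core of the antioxidant response element, were found on either strand in 1 of the 11 windows, that of *Ncoa4*, and in 12.4% of all 32851 windows. A match is a description of the letters and not a measurement of binding.

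CD11b is an integrin on microglia that other myeloid cells carry too, and cells that held it were drawn with magnetic beads from the hippocampus of female mice at 15 to 18 months of age, and their polyadenylated RNA was sequenced in bulk. Every mouse was Slc11a2fl/fl;Cx3cr1CreERT2+/- on a mixed 129S;C57BL/6J background, with a Cre that is active in microglia and other macrophages after tamoxifen, and was either hemizygous for the APP/PS1 transgenes (APPswe and PSEN1dE9) or a WT littermate. For Slc11a2KD, tamoxifen (4 mg, oral gavage, 5 days) was given when the mice were 5 to 6 months old, and Control mice received corn oil, so the effects of tamoxifen and of the knockdown cannot be told apart. The groups held 6 Control WT, 6 Control APP/PS1, 5 Slc11a2KD WT and 5 Slc11a2KD APP/PS1 samples, and a seventh Control APP/PS1 library, number 10, taken to be the outlier the study removed, is given apart.

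Counts on genes ran from 31128643 to 54872491 per sample. *Slc11a2*, the targeted gene, was not lower in the libraries labelled Slc11a2KD: its total over all exons was between 27.1 and 38.1 CPM (counts scaled by TMM-normalized library size) in Slc11a2KD WT and between 29.9 and 43.7 in Control WT, and between 37.8 and 75.1 in Slc11a2KD APP/PS1 and between 40.0 and 48.2 in Control APP/PS1. This total does not separate the floxed exons and is no check of their deletion. The study checked those exons on their own, a measure that was not used here, and Slc11a2KD below stands for the label. The 9 measured genes of a list of 10 microglia markers summed to between 27130 and 41526 CPM. The choroid plexus epithelium list (12 genes, led by *Ttr* and *Enpp2*) summed to 447 to 1977 CPM in Control WT 12 and 15 and Slc11a2KD WT 19 and 22, to 88.5 to 496 CPM in Slc11a2KD APP/PS1 18, 20, 21 and 23, and to 1.32 to 50.4 CPM in the other 14 libraries used. Libraries also differed in the balance of long and short transcripts. A length index, the median log2 deviation of genes with long canonical transcripts (at least 5041 bases) less that of genes with short ones (at most 2105 bases), lay between -0.11 and 0.60 in the Control libraries, between -1.41 and -0.27 in Slc11a2KD APP/PS1 18, 20, 21 and 23, and at 0.37 in Slc11a2KD APP/PS1 4. In Slc11a2KD WT it lay between 0.41 and 0.84 in libraries 1 to 3 and was -0.10 in 19 and -0.78 in 22. The labels do not say what the library numbers stand for.

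The members covered more than 5 orders of magnitude of expression, and the 2 ferritin chains were far above the other 6. Per kilobase of the canonical transcript, mean CPM over the 22 samples was 3003 for *Fth1*, 1483 for *Ftl1*, 143 for *Pcbp2*, 138 for *Pcbp1*, 59.2 for *Slc40a1*, 21.1 for *Ncoa4*, 2.22 for *Cp* and 0.0135 for *Heph*. *Fth1* was in place 24 and *Ftl1* in place 66 among 18615 genes on this scale, and *Heph* was in place 18292. Within Control WT the order per kilobase was the same except for the chaperones, of which *Pcbp1* (141 ± 10.0, SD, n = 6) lay above *Pcbp2* (121 ± 11.9, SD, n = 6), with ranges that overlapped. In Slc11a2KD APP/PS1 *Pcbp2* (175 ± 23.6, SD, n = 5) lay above *Pcbp1* (136 ± 10.8, SD, n = 5) with no overlap.

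**Figure D1:**
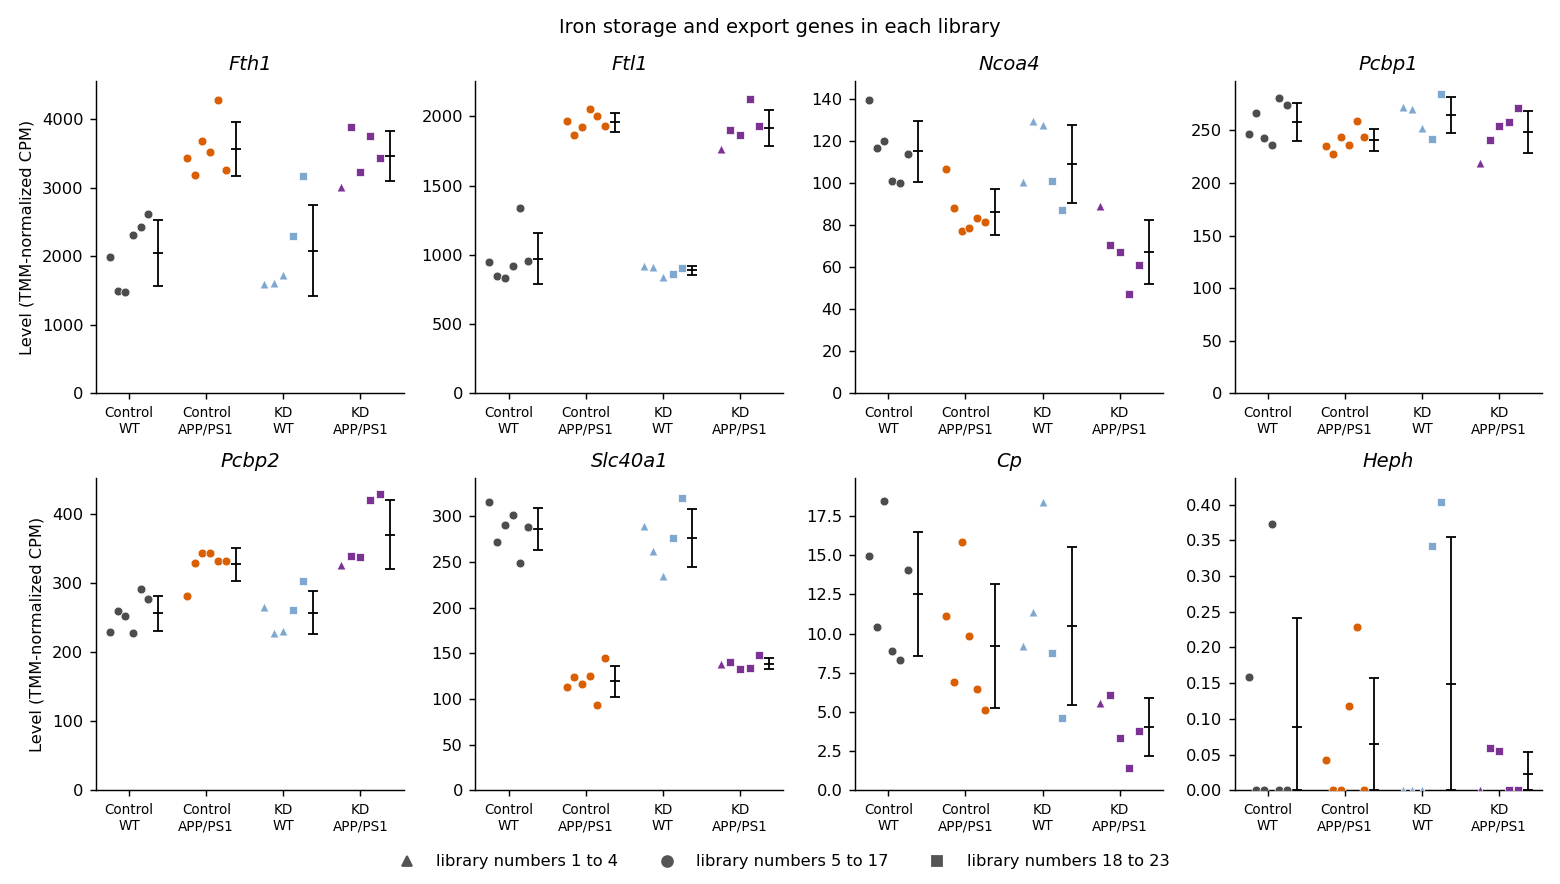
Each point is 1 library, the vertical axes give the level in TMM-normalized CPM from 0, the horizontal axes give the group (KD stands for Slc11a2KD), the marker shape gives the library number, and the bars give the mean and SD of each group, cut off at 0. Ftl1 and Slc40a1 separate the APP/PS1 from the WT libraries without overlap, while Cp spreads widely within all groups, Fth1 spreads widely within the WT groups, and Heph does not exceed 0.404 CPM.

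To determine how the storage and export genes differ with amyloid pathology, Control APP/PS1 was compared to Control WT. Of the 8 members, 3 were higher (*Ftl1*, *Fth1* and *Pcbp2*) and 2 were lower (*Slc40a1* and *Ncoa4*) by edgeR's quasi-likelihood test at an adjusted p of 0.05, against 10.5% of all 18759 genes tested. In Slc11a2KD APP/PS1 compared to Slc11a2KD WT, the same 3 were higher and 3 were lower (*Slc40a1*, *Ncoa4* and *Cp*), against 16.2% of all genes. For 3 members in each comparison the groups did not overlap (*Ftl1*, *Slc40a1* and *Fth1* in Control, *Ftl1*, *Slc40a1* and *Pcbp2* in Slc11a2KD), compared to 8.36% and 7.05% of all genes tested. The samples of one genotype come from separate libraries, and the p-values measure the spread between them.

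*Ftl1*, the ferritin light chain (GRCm39 chr7:45107367-45109308, minus strand, 4 exons), rose in APP/PS1 and separated the genotypes completely. It ran from 832 through a median of 933 to 1339 CPM in Control WT and from 1866 through 1946 to 2052 CPM in Control APP/PS1. It was 919, 913, 840, 863 and 907 CPM in Slc11a2KD WT 1, 2, 3, 19 and 22, and 1768, 1904, 1868, 2123 and 1928 CPM in Slc11a2KD APP/PS1 4, 18, 20, 21 and 23. Every APP/PS1 library lay above every WT library, and Control WT 14 was the WT library nearest to them. The difference was 2.01-fold in Control (log2 1.01, SE 0.10, 95% interval 0.80 to 1.21, adjusted p = 1.48e-07) and 2.16-fold in Slc11a2KD (log2 1.11, SE 0.11, 95% interval 0.89 to 1.33, adjusted p = 2.59e-07, edgeR).

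*Fth1*, the ferritin heavy chain (GRCm39 chr19:9957911-9962462, plus strand, 4 exons), rose as well but was less even among the WT libraries. It ran from 1473 through a median of 2149 to 2612 CPM in Control WT and from 3183 through 3475 to 4279 CPM in Control APP/PS1. In Slc11a2KD WT it was 1601, 1616 and 1731 CPM in libraries 1, 2 and 3 but 2301 and 3166 CPM in 19 and 22, and in Slc11a2KD APP/PS1 it was 3008, 3880, 3229, 3749 and 3434 CPM in 4, 18, 20, 21 and 23. Slc11a2KD WT 22 lay above Slc11a2KD APP/PS1 4, and the other Slc11a2KD libraries kept the genotypes apart. *Fth1* was 1.73-fold higher in Control APP/PS1 (log2 0.79, SE 0.16, 95% interval 0.46 to 1.13, adjusted p = 0.00203) and 1.66-fold higher in Slc11a2KD APP/PS1 (log2 0.73, SE 0.18, 95% interval 0.36 to 1.10, adjusted p = 0.0071, edgeR) than in the WT group of the same label.

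The WT libraries with the highest *Fth1* were Control WT 12, 14 and 15 and Slc11a2KD WT 19 and 22, from 2301 to 3166 CPM, and the other 6 WT libraries lay between 1473 and 1988 CPM. Of these 5 libraries, 12, 15, 19 and 22 were the WT libraries with 447 to 1977 CPM of the choroid plexus list, and Control WT 14 had 4.89 CPM of it. Within groups, deviations of log2 *Fth1* followed those of the choroid plexus list with a Pearson correlation of 0.63 and those of the length index with -0.61 over the 22 samples. Control WT 12 and 15, with the highest choroid plexus sums, had length indices of 0.30 and 0.14, inside the range of Control WT (0.06 to 0.42), whereas Slc11a2KD WT 19 and 22 had both high sums and the lowest indices of their group. With the choroid plexus list as a covariate the log2 difference of *Fth1* was 0.97 in Control and 0.70 in Slc11a2KD (adjusted p = 5.85e-05 and 0.00222, edgeR). Without Control WT 12 and 15 it was 0.95 in Control (adjusted p = 0.00195), and without all 4 WT libraries it was 1.07 in Slc11a2KD (adjusted p = 9.64e-05). With the length index as a covariate it was 0.47 in Slc11a2KD, and the call was lost (adjusted p = 0.0567).

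Both chains together took a larger share of the counts in APP/PS1. The share was 0.317% ± 0.0620 in Control WT (SD, n = 6) and 0.546% ± 0.0382 in Control APP/PS1 (SD, n = 6), and 0.304% ± 0.0440 in Slc11a2KD WT (SD, n = 5) and 0.495% ± 0.0387 in Slc11a2KD APP/PS1 (SD, n = 5). The 11 WT libraries lay between 0.245% and 0.383% and the 11 APP/PS1 libraries between 0.463% and 0.614%, with no overlap. The ratio of heavy to light chain mRNA, each per kilobase, was 2.21 ± 0.436 in Control WT, 1.90 ± 0.184 in Control APP/PS1, 2.45 ± 0.772 in Slc11a2KD WT and 1.88 ± 0.141 in Slc11a2KD APP/PS1 (SD). Its range in WT, 1.82 to 3.64, held most of the range in APP/PS1, 1.76 to 2.23, and the highest ratio was that of Slc11a2KD WT 22. With the counts of ferritin pseudogenes added to the parent genes, the 2 chains kept their calls in both comparisons. Some of these counts were too low to move a call: in Control WT, *Ftl1-ps1* reached at most 6.11 CPM and *Fth-ps2* at most 1.68 CPM. How reads shared between a chain and its pseudogenes were assigned was not tested.

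**Figure D2:**
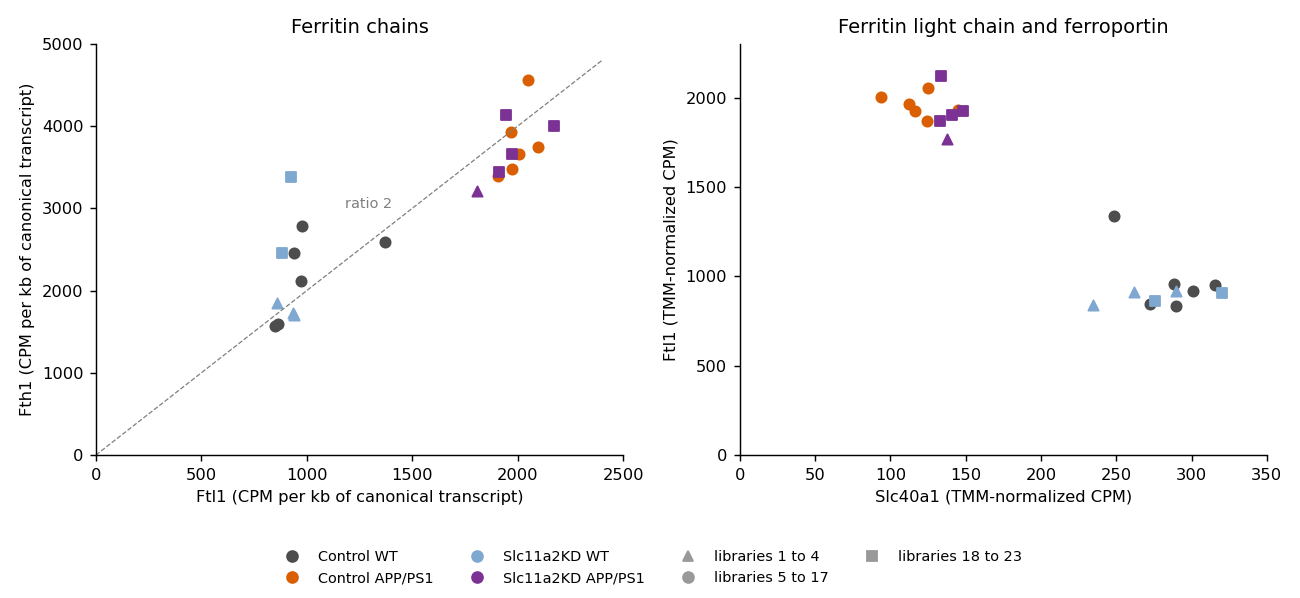
Left, level of Fth1 against Ftl1 in CPM per kilobase of canonical transcript, with a dashed line at a ratio of 2; right, level of Ftl1 against Slc40a1 in TMM-normalized CPM; each point is 1 of 22 libraries, coloured by group and shaped by library number. WT libraries other than Control WT 14 have nearly the same Ftl1 and lie on both sides of the line, and the ratio of Ftl1 to Slc40a1 is 2.83 to 5.39 in WT and 12.8 to 21.3 in APP/PS1 libraries.

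Ferroportin, the exporter encoded by *Slc40a1* (GRCm39 chr1:45947211-45965683, minus strand, 8 exons), moved opposite to the ferritin chains. It ran from 249 through a median of 289 to 316 CPM in Control WT and from 93.8 through 120.1 to 145 CPM in Control APP/PS1. It was 289, 262, 234, 275 and 320.3 CPM in Slc11a2KD WT 1, 2, 3, 19 and 22 and 138, 141, 133, 134 and 148 CPM in Slc11a2KD APP/PS1 4, 18, 20, 21 and 23. No APP/PS1 library reached the lowest WT library. The log2 fold change was -1.26 in Control (SE 0.10, 95% interval -1.47 to -1.05, adjusted p = 7.89e-09), to 0.418 of the WT level, and -0.99 in Slc11a2KD (SE 0.11, 95% interval -1.22 to -0.77, adjusted p = 1.17e-06, edgeR), to 0.502 of the WT level. The ratio of *Ftl1* to *Slc40a1* CPM was 3.45 ± 0.957 in Control WT and 16.7 ± 2.7 in Control APP/PS1 (SD, n = 6 each), and 3.24 ± 0.301 in Slc11a2KD WT and 13.9 ± 1.24 in Slc11a2KD APP/PS1 (SD, n = 5 each).

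Macrophages of the brain borders also express *Slc40a1*, and transcripts of several cell types were lower in the same libraries. All 10 genes of the border-associated macrophage list were measured, and they summed to between 262 and 522 CPM in Control WT, 110.1 and 230.4 in Control APP/PS1, 334 and 581 in Slc11a2KD WT and 157 and 253 in Slc11a2KD APP/PS1. The defining marker *Mrc1* had a median of 98.0 CPM in Control WT and 31.5 in Control APP/PS1, and *Lyve1* of 4.61 and 2.15 CPM. The microglia list summed to between 35898 and 41170 CPM in Control WT and 27130 and 31196 in Control APP/PS1, and to between 36681 and 41526 CPM in Slc11a2KD WT and 30146 and 33772 in Slc11a2KD APP/PS1. The endothelium list (8 of 8 genes measured) lay between 187 and 433 CPM in Control WT and between 114 and 162 in Control APP/PS1, and between 171 and 390 CPM in Slc11a2KD WT and 99.5 and 191 in Slc11a2KD APP/PS1, which overlapped. In bulk RNA, fewer cells of a type and less RNA per cell cannot be told apart, and the part of these cell types in the difference of *Slc40a1* was not tested.

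NCOA4, which delivers ferritin to lysosomes for breakdown, is encoded by *Ncoa4* (GRCm39 chr14:31881822-31902234, plus strand, 10 exons in the canonical transcript). Its mRNA ran from 99.8 through a median of 115 to 139 CPM in Control WT and from 77.1 through 82.4 to 107 CPM in Control APP/PS1. It was 100.5, 129, 127, 100.7 and 87.0 CPM in Slc11a2KD WT 1, 2, 3, 19 and 22 and 89.1, 70.3, 67.0, 47.4 and 60.9 CPM in Slc11a2KD APP/PS1 4, 18, 20, 21 and 23. In each comparison 1 APP/PS1 library, Control APP/PS1 5 or Slc11a2KD APP/PS1 4, lay above the lowest WT library. On the log2 scale *Ncoa4* fell by 0.42 in Control APP/PS1 (SE 0.14, 95% interval -0.70 to -0.14, adjusted p = 0.0471) and by 0.70 in Slc11a2KD APP/PS1 (SE 0.15, 95% interval -1.01 to -0.40, adjusted p = 0.00231, edgeR), where it fell by 0.37 with the length index as a covariate. The call in Control was close to the threshold: of the 12 fits that left out 1 Control library, it held in 3, those without Control APP/PS1 5 and without Control WT 12 or 14, and adjusted p ranged from 0.0262 to 0.115, the highest without Control WT 6. The call was also lost without both Control WT 12 and 15 (adjusted p = 0.0738).

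The chaperones differed from each other. *Pcbp2* (GRCm39 chr15:102378928-102408805, plus strand, 14 exons) ran from 227 through a median of 257 to 291 CPM in Control WT and from 281 through 333 to 344 CPM in Control APP/PS1. It was 266, 228, 230.3, 261 and 304 CPM in Slc11a2KD WT 1, 2, 3, 19 and 22 and 326, 339, 338, 421 and 429 CPM in Slc11a2KD APP/PS1 4, 18, 20, 21 and 23. The groups overlapped in Control through Control APP/PS1 5 and did not overlap in Slc11a2KD. *Pcbp2* was 1.28-fold higher in Control APP/PS1 (log2 0.35, SE 0.10, adjusted p = 0.0224) and 1.44-fold higher in Slc11a2KD APP/PS1 (log2 0.52, SE 0.11, adjusted p = 0.00206, edgeR), where the log2 difference was 0.31 with the length index as a covariate. The call in Control was lost with DESeq2's size factors in edgeR (adjusted p = 0.0627), without Control WT 6 or 12 (0.057 and 0.0594), without Control APP/PS1 11 or 13 (0.0524 and 0.0509), and without both Control WT 12 and 15 (0.0814). *Pcbp1*, a gene of 1 exon (GRCm39 chr6:86501468-86504330, minus strand), was the steadiest member, between 219 and 285 CPM in all 22 samples. Its log2 fold change was -0.10 in Control (95% interval -0.26 to 0.06, adjusted p = 0.505) and -0.09 in Slc11a2KD (95% interval -0.27 to 0.09, adjusted p = 0.53, edgeR), so a log2 difference beyond 0.27 in size lay outside both intervals.

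Ceruloplasmin, a ferroxidase that in the brain is best known from astrocytes, was the most variable of the expressed members. *Cp* (GRCm39 chr3:20011090-20063930, plus strand, 19 exons) ran from 8.29 through a median of 12.3 to 18.5 CPM in Control WT and from 5.10 through 8.39 to 15.8 CPM in Control APP/PS1, with overlapping groups. It was 9.24, 11.4, 18.4, 8.76 and 4.61 CPM in Slc11a2KD WT 1, 2, 3, 19 and 22 and 5.59, 6.08, 3.32, 1.41 and 3.79 CPM in Slc11a2KD APP/PS1 4, 18, 20, 21 and 23. Slc11a2KD WT 22 lay below the 2 highest Slc11a2KD APP/PS1 libraries, and the other Slc11a2KD WT libraries lay above all of them. The log2 fold change was -0.44 in Control (SE 0.34, 95% interval -1.14 to 0.26, adjusted p = 0.483) and -1.37 in Slc11a2KD (SE 0.38, 95% interval -2.15 to -0.59, adjusted p = 0.0151, edgeR). The call in Slc11a2KD was lost without Slc11a2KD WT 3 (log2 -1.07, adjusted p = 0.0695), with only the compared groups in the fit (adjusted p = 0.0795), with library numbers 18 to 23 as a covariate (log2 -0.99, adjusted p = 0.116) and with the length index as a covariate (log2 -0.59, adjusted p = 0.363). The astrocyte list (10 of 10 genes measured) gave no single value to set beside *Cp*. Its sum was mostly *Slc1a3* and *Gfap*, with medians of 143 and 3.85 CPM in Slc11a2KD WT and of 56.8 and 37.2 CPM in Slc11a2KD APP/PS1, and *Aqp4*, *Gja1*, *Sox9* and *Fgfr3* had medians of at most 1.15 CPM in every group.

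Hephaestin was at or near the limit of detection. *Heph* (GRCm39 chrX:95498965-95621010, plus strand, 22 exons) had 0 counts in 13 of the 22 libraries, and its highest values were 17 counts (0.404 CPM) in Slc11a2KD WT 22, 16 counts (0.372 CPM) in Control WT 12 and 14 counts (0.341 CPM) in Slc11a2KD WT 19. A count of 0 allows up to 3 counts, between 0.0547 and 0.0964 CPM in these libraries. The 3 libraries with the most *Heph* were among the 4 WT libraries with the most choroid plexus transcripts, and within groups log2 *Heph* followed that list with a Pearson correlation of 0.53 over the 22 samples, which at these counts is no finding. No fold change is given, and *Heph* passed the threshold in no comparison.

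**Figure D3:**
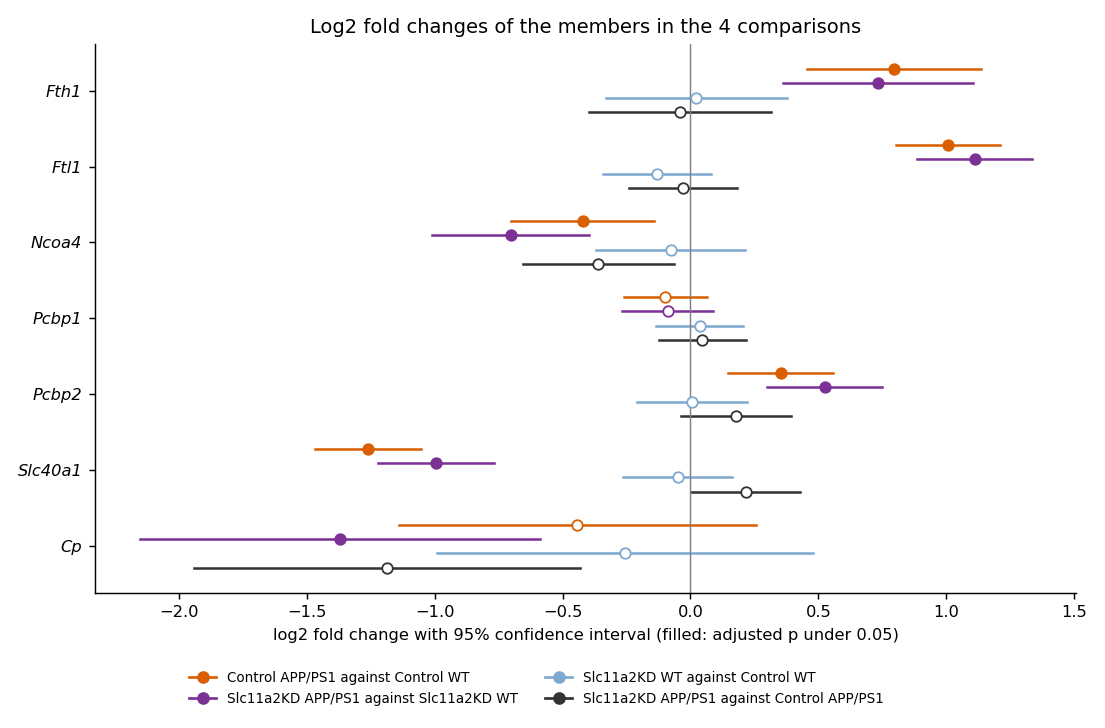
Horizontal axis, log2 fold change of 7 members with its 95% confidence interval; colours mark the 4 comparisons and filled points an adjusted p under 0.05 (edgeR's quasi-likelihood test). Filled points are found only in the 2 comparisons of APP/PS1 against WT, 5 in Control and 6 in Slc11a2KD, and all 14 points of the 2 knockdown comparisons are open.

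To determine whether the knockdown label went with different storage and export mRNA, Slc11a2KD was compared to Control within each genotype. All Control libraries were numbered 5 to 17 and all Slc11a2KD libraries 1 to 4 or 18 to 23, so the label and the run of library numbers cannot be told apart in these comparisons. Both Slc11a2KD runs held both genotypes, in unequal numbers. In the interaction, a genotype difference that changes with the run cannot be told apart from one that changes with the label. In WT, no member passed the threshold, and 0% of all 18759 genes tested by edgeR did, of which 1110 had an unadjusted p under 0.05 (DESeq2 called 10 genes, no member among them). The log2 differences of *Fth1*, *Ftl1*, *Ncoa4*, *Pcbp1*, *Pcbp2* and *Slc40a1* lay between -0.13 and 0.04, and that of *Cp* was -0.26 (95% interval -0.99 to 0.48, adjusted p = 1). Their 95% intervals bounded the difference to between -0.34 and 0.08 for *Ftl1*, -0.26 and 0.16 for *Slc40a1* and -0.33 and 0.38 for *Fth1*. Differences of that size between the labels could therefore not be detected, while one as large as that between the genotypes lay outside the intervals of *Ftl1*, *Fth1* and *Slc40a1*.

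In APP/PS1, no member and 0% of all genes passed in edgeR, although 3862 genes had an unadjusted p under 0.05 and DESeq2 called 580. The ferritin chains were nearly level between the labels, with log2 differences of -0.04 for *Fth1* (95% interval -0.39 to 0.31) and -0.03 for *Ftl1* (95% interval -0.24 to 0.18), both of which changed sign with DESeq2's size factors. *Slc40a1* was 139 ± 6.35 CPM in Slc11a2KD APP/PS1 (SD, n = 5) and 119 ± 16.9 CPM in Control APP/PS1 (SD, n = 6), with overlapping libraries, a log2 difference of 0.22 (SE 0.10, 95% interval 0.00177 to 0.43) and an adjusted p of 0.239. The log2 difference was -0.36 for *Ncoa4* (SE 0.14, 95% interval -0.65 to -0.07, adjusted p = 0.205) and -1.19 for *Cp* (SE 0.37, 95% interval -1.94 to -0.43, adjusted p = 0.205, edgeR). All 5 Slc11a2KD APP/PS1 libraries were at or below 6.08 CPM of *Cp*, and 5 of the 6 Control APP/PS1 libraries were above it.

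This comparison turned on library 4. Without Slc11a2KD APP/PS1 4, 16.4% of 18700 genes passed, and so did 2 members, *Ncoa4* (log2 -0.48, adjusted p = 0.0252) and *Cp* (log2 -1.33, adjusted p = 0.0291, edgeR), while *Slc40a1* did not (log2 0.22, adjusted p = 0.18). The 4 libraries that remain, 18, 20, 21 and 23, are those with a length index between -1.41 and -0.27. With library numbers 18 to 23 as a covariate the log2 difference was -0.04 for *Ncoa4*, -0.55 for *Cp* and 0.12 for *Slc40a1*, and with the length index as a covariate it was -0.07, -0.62 and 0.15, with an adjusted p of 1 in each. No Control library was numbered 18 to 23, and of Slc11a2KD APP/PS1 only library 4 lay outside that run. The values under the first covariate therefore rest largely on library 4 and on the Slc11a2KD WT libraries, and they decide nothing about the difference. The interaction, which asks whether the difference between the genotypes depends on the knockdown label, passed for no member and for 0% of all genes in edgeR (1703 with an unadjusted p under 0.05, 25 called by DESeq2). Its log2 value was 0.27 for *Slc40a1* (SE 0.15, adjusted p = 0.544), -0.93 for *Cp* (SE 0.50, adjusted p = 0.544), -0.28 for *Ncoa4* (SE 0.20, adjusted p = 0.582) and between -0.06 and 0.17 for the other members except *Heph*.

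Within Slc11a2KD, the genotypes could be set side by side in each run of library numbers. In 1 to 4, with 1 APP/PS1 and 3 WT libraries, the difference of mean log2 CPM between APP/PS1 and WT was 0.87 for *Fth1*, 0.99 for *Ftl1*, 0.44 for *Pcbp2*, -0.41 for *Ncoa4*, -0.92 for *Slc40a1* and -1.15 for *Cp*. In 18 to 23, with 4 APP/PS1 and 2 WT libraries, it was 0.40 for *Fth1*, 1.14 for *Ftl1*, 0.43 for *Pcbp2*, -0.62 for *Ncoa4*, -1.10 for *Slc40a1* and -0.97 for *Cp*. Each of these 6 members thus had the same direction in both runs, and no test was made in groups of 1 or 2.

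The members also varied within groups, and *Ncoa4*, *Pcbp2* and *Cp* did so together with the length index. Over the 22 samples, deviations from the group means of log2 CPM had a Pearson correlation with those of the length index of 0.85 for *Ncoa4*, 0.70 for *Cp*, -0.80 for *Pcbp2*, -0.61 for *Fth1*, -0.60 for *Pcbp1*, -0.35 for *Ftl1* and -0.27 for *Slc40a1*. *Ncoa4* and *Cp* have canonical transcripts of 4486 and 4157 bases, *Pcbp1* and *Pcbp2* of 1830 and 2112, and *Ftl1* and *Fth1* of 969 and 929. Among the members, the deviations of *Ncoa4* and *Pcbp2* were the most opposed (-0.80) and those of *Ncoa4* and *Cp* the most alike (0.70). The deviations of *Ftl1* and *Slc40a1*, which were strongly opposed between genotypes (-0.95 across the levels), had a Pearson correlation of -0.23 and a Spearman correlation of -0.025 within groups. With the length index as a covariate, *Ncoa4* and *Pcbp2* kept their calls in both comparisons of the genotypes at smaller values, with log2 -0.36 and 0.31 in Control (adjusted p = 0.00132 and 0.00068) and -0.37 and 0.31 in Slc11a2KD (adjusted p = 0.0159 and 0.0124, edgeR), where they were -0.70 and 0.52 without it. *Fth1* and *Cp* lost their calls in Slc11a2KD under this covariate, which left 4 of the 6 members, and fewer of all genes passed there as well.

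**Figure D4:**
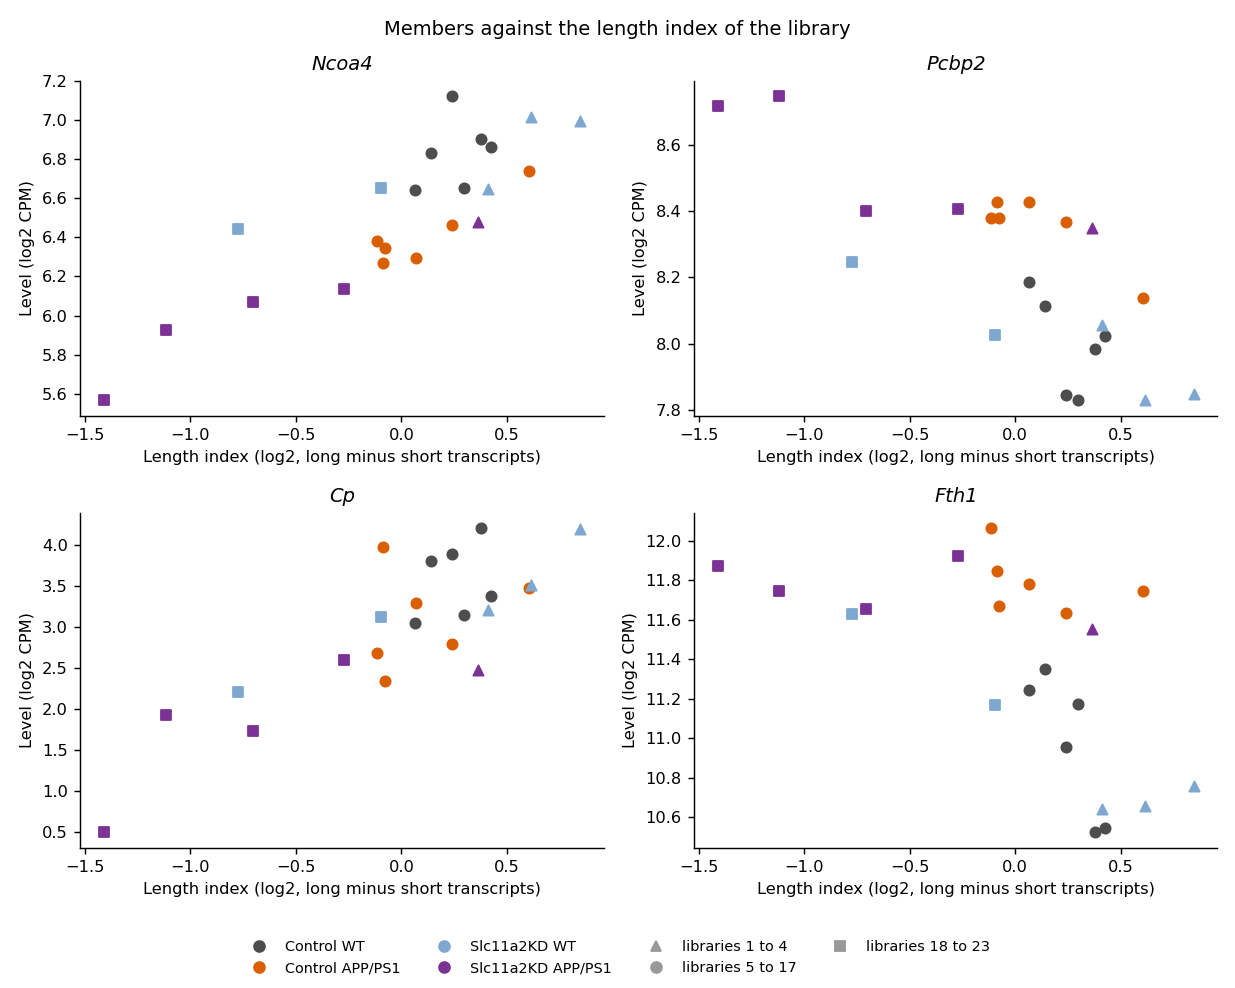
Level (log2 of TMM-normalized CPM) of Ncoa4, Pcbp2, Cp and Fth1 against the length index of the library, in log2 units, for 22 libraries coloured by group and shaped by library number. Ncoa4 and Cp are lowest in Slc11a2KD APP/PS1 21, which has the lowest index (-1.41), and Pcbp2 is highest in 21 and 23.

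The genes most like each member in level over the 22 samples were taken from 9388 tested genes with a mean of at least 5 CPM, first on the levels and then with the group means removed. For *Ftl1* they were *Cst7*, *Psat1* and *Cd274* (Pearson correlation 0.99, 0.98 and 0.98), and for *Slc40a1* they were *0610040J01Rik*, *Snn* and *Ecscr* (0.98, 0.97 and 0.96). For *Fth1* they were *Plekhb2*, *Capg* and *Tpm4* (0.93, 0.92 and 0.92), for *Ncoa4* *Gmeb1*, *Slc29a3* and *Atp6v0a2* (0.96, 0.95 and 0.95), and for *Pcbp2* *Eif3f*, *Kxd1* and *Aprt* (0.97, 0.96 and 0.95). For *Pcbp1* they were *Hnrnpk*, *Preb* and *Akr1b10* (0.84, 0.83 and 0.83), and for *Cp* *Ulk2*, *Smad3* and *Vwa5a* (0.89 each). In the second list, *Cst7* and *Cd274* again led for *Ftl1* (0.80 each, with *H1f2* at 0.79), *Eif3f* led for *Pcbp2* (0.92, with *Dynlt2b* and *Cdc26* at 0.87), and *Plekhb2* stayed among the 3 for *Fth1* (0.86, with *Cltb* at 0.88 and *Idh3a* at 0.85). The closest genes by deviations were *Ptpra*, *Esyt2* and *Pdia4* for *Ncoa4* (0.91 each), *Zfp593*, *Nob1* and *Ntmt1* for *Pcbp1* (0.86, 0.85 and 0.83), *Castor1*, *0610040J01Rik* and *Ykt6* for *Slc40a1* (0.75, 0.70 and 0.69) and *Ficd*, *Ranbp3* and *Vwa5a* for *Cp* (0.83, 0.82 and 0.82). *Cst7*, a cystatin known from plaque-associated microglia, lay between 3.85 and 52.8 CPM in WT and between 267 and 621 CPM in APP/PS1 libraries. Counts of *Heph* were too sparse for such a list.

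Of the regulators of ferritin and ferroportin, *Hif1a* and *Hmox1* rose in APP/PS1 under both labels, and *Rb1cc1*, *Bach1* and *Ireb2* passed, as lower, in Slc11a2KD, where *Bach1* alone of the 3 kept its call with the length index as a covariate, under which it passed in Control too. Of 16 listed genes 14 were tested, and *Hamp* and *Hamp2*, which encode the ferroportin-binding hormone hepcidin and its paralog, were not analysed here. In Control APP/PS1 compared to Control WT, 2 were higher and 0 lower, against 10.5% of all genes past the threshold, with a median log2 difference over the list of -0.06 and over all genes of -0.02. *Hif1a*, a hypoxia-inducible factor, rose by 2.04 in log2 units (SE 0.13, adjusted p = 4.66e-10), from 122 ± 15.1 to 502 ± 96.9 CPM (SD, n = 6 each). With the length index as a covariate 5 were higher, with *Nfe2l2*, *Keap1* and *Tax1bp1* added, and 2 were lower, *Bach1* (log2 -0.24, adjusted p = 0.0111, edgeR) and *Bmp6*. More of all genes passed as well under this covariate in Control, as given below. *Hmox1*, the heme oxygenase that frees iron from heme, rose by 0.63 (SE 0.09, adjusted p = 4.09e-05, edgeR). In Slc11a2KD APP/PS1 compared to Slc11a2KD WT, 2 were higher (*Hif1a* and *Hmox1*) and 3 lower (*Rb1cc1*, *Bach1* and *Ireb2*), against 16.2% of all genes, with a median of -0.29 over the list and -0.07 over all genes. The 3 largest were *Hif1a* (log2 1.78, SE 0.14, adjusted p = 1.88e-08), the autophagy gene *Rb1cc1* (log2 -1.29, SE 0.42, adjusted p = 0.0381) and *Bach1*, a heme-binding repressor of *Hmox1* and the ferritin genes (log2 -0.68, SE 0.15, adjusted p = 0.00243). With the length index as a covariate, log2 was -0.34 for *Rb1cc1* (adjusted p = 0.5), -0.33 for *Bach1* (adjusted p = 0.0122) and -0.22 for *Ireb2* (adjusted p = 0.274, edgeR). *Rb1cc1* ran from 2.19 to 15.3 CPM in Slc11a2KD APP/PS1, and without library 4 its log2 difference was -1.93 (adjusted p = 0.000717, edgeR). The mRNAs of the iron regulatory proteins stayed close in Control, with a log2 difference of 0.01 for *Aco1* (adjusted p = 0.979) and -0.14 for *Ireb2* (adjusted p = 0.691, edgeR). In Slc11a2KD, *Ireb2* fell by 0.60 (SE 0.18, adjusted p = 0.0269) and *Aco1* had a log2 difference of -0.32 (adjusted p = 0.246, edgeR). None of the 14 passed in a comparison of Slc11a2KD with Control, as 0% of all genes did in edgeR. Without Slc11a2KD APP/PS1 4, where 16.4% of all genes passed, 1 was higher and 7 were lower in Slc11a2KD APP/PS1 than in Control APP/PS1, among them *Ireb2* (log2 -0.66) and *Bach1* (log2 -0.58, adjusted p = 0.0202 each, edgeR).

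Among genes of iron entry and reduction, 17 of 18 were tested, and in Control APP/PS1 3 were higher (*Slc11a1*, *Slc39a14* and *Mcoln1*) and 4 lower (*Steap2*, *Steap1*, *Hp* and *Cd163*), against 10.5% of all genes, with a median log2 difference of -0.36 over the list. *Steap1* and *Steap2*, metalloreductases, had no fold that could be given: they were at 0 in Control WT 6, 8, 9 and 14 and at or below 0.0485 CPM in all Control APP/PS1 libraries, and among the Control libraries were detected above that level in Control WT 12 and 15 alone (*Steap1* 9.26 and 5.97 CPM, *Steap2* 9.17 and 2.45 CPM), the 2 Control libraries with high choroid plexus transcripts. *Hp*, which encodes haptoglobin, fell by 1.69 on the log2 scale (SE 0.53, adjusted p = 0.0411, edgeR). *Hp* belongs to the monocyte list (8 of 8 genes measured), which summed to between 35.7 and 104 CPM in Control WT and 15.0 and 33.8 in Control APP/PS1, and the neutrophil list (8 of 8) summed to between 89.0 and 331 and between 20.6 and 97.6 CPM. *Cd163* belongs to the border-associated macrophage list, which was lower in APP/PS1 as given above, and the part of these cells in either difference was not tested. In Slc11a2KD APP/PS1 5 were higher and 2 lower, against 16.2% of all genes, with a median of -0.54 over the list, and the 3 largest were the hemoglobin scavenger receptor *Cd163* (log2 -1.76, SE 0.37, adjusted p = 0.00247), the lysosomal metal transporter *Slc11a1* (log2 1.09, SE 0.11, adjusted p = 2.79e-07) and *Slc39a4* (log2 0.90, SE 0.24, adjusted p = 0.0111). With the length index as a covariate 4 were higher and 0 lower, and the calls of *Cd163* (log2 -0.94, adjusted p = 0.112), *Tfrc* (log2 -0.35, adjusted p = 0.141) and *Slc39a14* (log2 0.51, adjusted p = 0.0792, edgeR) were lost. Fewer of all genes passed there as well under this covariate, as given below. In Control the same covariate gave 5 higher and 5 lower, where more of all genes passed than without it. *Slc11a2* itself was higher in Slc11a2KD APP/PS1 than in Slc11a2KD WT (log2 0.72, SE 0.15, adjusted p = 0.00209, edgeR), and its log2 difference between Slc11a2KD and Control was -0.04 in WT (adjusted p = 1) and 0.39 in APP/PS1 (adjusted p = 0.205). Of 14 listed paralogs and pseudogenes of the members 9 were tested, and with all libraries in the fit the only one past the threshold was the pseudogene *Fth-ps2*, with 0 to 1.46 CPM in Slc11a2KD WT and 0 in all 5 Slc11a2KD APP/PS1 libraries, a call that was lost with the length index as a covariate (adjusted p = 0.223, edgeR). Without Slc11a2KD APP/PS1 4, *Fth-ps2* and *Pcbp3* passed as lower than in Slc11a2KD WT, 2 of the 8 then tested. None of the genes of these 2 lists passed in a comparison of Slc11a2KD with Control with all libraries in the fit. Without Slc11a2KD APP/PS1 4, *Slc11a2* was higher (log2 0.50, adjusted p = 0.0209, edgeR) and *Lrp1* lower in Slc11a2KD APP/PS1 than in Control APP/PS1. They were the only calls among the 17 tested genes of iron entry and reduction, and 16.4% of all genes passed in that fit.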

How the data were processed

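Poly(A) libraries of 23 samples were sequenced as paired 150 bp reads. According to the study's methods and the submitters' processing notes, reads were trimmed (Trim Galore 0.6.7), mapped with STAR to the mouse reference, and counts were taken per gene. The authors deposited raw counts of 18876 genes, and a second table of normalized signal, in which the authors scaled every sample by a size factor of its own; it served only as an alternative for levels. Samples were grouped by their labels, and Control APP/PS1 library 10 was left out of the fits (22 samples). Which library the study removed was inferred from its absence among the samples the study displays.

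Genes that reached 5 counts in 3 or more samples (18759) were scaled by TMM and fitted in 1 model of all 4 groups with edgeR 4.0.16 (quasi-likelihood test, R 4.3.3, no covariate), with Benjamini-Hochberg adjustment over all genes tested, a threshold of 0.05 and two-sided tests. Intervals are 95%. Lengths are those of GENCODE canonical transcripts. Log2 CPM for correlations used a prior count of 2. The length index was chosen after seeing the data, over 9382 genes. The members and gene lists were chosen with earlier results of these data known. Named genes were all members, of each list those past the threshold with the 3 largest changes per comparison beside *Hamp*, *Aco1*, *Ireb2* and *Slc11a2*, and the 3 genes closest to each member. The steps were tested on simulated counts. Marker lists were scored as sums of CPM. The library pair most alike differed by a chi-square of 32.5 per degree of freedom, so none was counted as a duplicate. Total counts ran from 31128643 to 54872491, and the 0-count floor of 3 counts covers counting error only. Alternatives were other scalings, tests (DESeq2 1.42.0, limma 3.58.1), filters, samples, covariates and libraries left out.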

Additional observations from a re-analysis of the deposited data

Results flagged for a closer look

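In 3 of 32 combinations of a member and a group, 1 library lay farther from the others than Dixon's test allows at 95%, which chance gives in about 1 of 20. *Ftl1* was 1339 CPM in Control WT 14, and the other 5 Control WT libraries lay between 832 and 955 CPM. The same library had the lowest *Slc40a1* (249 CPM), *Ncoa4* (99.8 CPM) and *Cp* (8.29 CPM) and the highest *Pcbp2* (291 CPM) of Control WT, and 52.8 CPM of *Cst7* where the other 5 had between 4.18 and 7.96 CPM. Without it the log2 difference of *Ftl1* in Control was 1.12 (adjusted p = 1.99e-09, edgeR).

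Control APP/PS1 5 stood apart for *Ncoa4* (106.7 CPM, the others between 77.1 and 88.2 CPM) and for *Pcbp2* (281.4 CPM, the others between 329.8 and 344 CPM). Its length index of 0.60 was the highest of its group, in which the others lay between -0.11 and 0.24. Without it the log2 differences in Control were -0.49 for *Ncoa4* (adjusted p = 0.0262) and 0.39 for *Pcbp2* (adjusted p = 0.0165, edgeR).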

How the results depend on the processing

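Of the members' log2 fold changes under all alternatives, 785 kept their direction and side of the threshold, 21 lost and 2 gained a call, and 54 changed sign, all of the last in values that passed no test. No paired analysis was possible because each replicate number is a library number used once; the run of numbers 18 to 23 was fitted as a covariate instead. For values that changed, the cause was not tested. Depth limits what can be said of *Heph*, at 0 counts in 13 of 22 libraries.

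In Control, the 5 members past the threshold became 3 without Control WT 12 and 15, 2 at a log2 change over 1, and 3 to 5 with 1 library left out, and the 1965 genes became 3421 with limma, 3241 with only the compared groups, 1282 without Control WT 12 and 15, 3730 with the length index, and 918 at a log2 change over 1 (1561 to 1969 with 1 library left out). In Slc11a2KD, the 6 members became 4 with the length index, 5 with only the compared groups, 5 with library numbers 18 to 23 as a covariate, 2 at a log2 change over 1 and 5 to 6 with 1 library left out, and the 3034 genes became 1041 with only the compared groups, 1773 with library numbers 18 to 23 as a covariate, 5135 without Control WT 12 and 15 and Slc11a2KD WT 19 and 22, 1818 with the length index and 1105 at a log2 change over 1 (1977 to 4781 with 1 library left out). Of the knockdown comparisons, WT had 10 genes with DESeq2, 1 with limma and 2 without the 4 WT libraries (0 to 1 with 1 library left out), and APP/PS1 had 580 with DESeq2 and 2 with limma, and 0 to 3069 genes and 0 to 2 members with 1 library left out. The interaction had 25 genes with DESeq2 and 1 with limma (0 to 1 with 1 library left out).

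Within library numbers 1 to 4 the Slc11a2KD log2 difference between genotypes was 0.99 for *Ftl1*, -0.41 for *Ncoa4* and -0.27 for *Pcbp1*, and within 18 to 23 it was 0.40 for *Fth1*.

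Sign changes in WT, Slc11a2KD against Control, were as follows. *Fth1* was -0.10 with limma, -0.23 with library numbers 18 to 23, -0.028 with the choroid plexus list, -0.18 without the 4 WT libraries and -0.033 with the length index. *Pcbp2* was -0.0063 with limma, -0.0048 with a filter of 10 counts, -0.0029 with only the compared groups, -0.088 with library numbers 18 to 23, -0.0023 with the choroid plexus list, -0.0055 without Control WT 12 and 15, -0.11 without the 4 WT libraries and -0.013 with the length index. With library numbers 18 to 23, *Ncoa4* was 0.082 and *Cp* 0.0034. In APP/PS1, *Fth1* was 0.0025 and *Ftl1* 0.016 with DESeq2 and with its size factors, and *Ftl1* was 0.0091 with a filter of 10 counts. *Pcbp1* was -0.023 and *Pcbp2* -0.0055 with library numbers 18 to 23, and -0.044 and -0.014 with the length index. For the interaction, *Fth1* was 0.074 with limma and 0.13 without the 4 WT libraries, *Pcbp1* was -0.00044 with limma, -0.026 with library numbers 18 to 23 and -0.074 with the length index, and *Pcbp2* was -0.0010 with the length index. With 1 library left out, the range was -0.19 to 0.10 for *Fth1*, -0.0068 to 0.061 for *Pcbp1*, -0.072 to 0.049 for *Pcbp2* and -0.12 to 0.0037 for *Slc40a1* in WT, -0.13 to 0.019 for *Fth1* in APP/PS1, and -0.14 to 0.14 for *Fth1*, -0.0098 to 0.14 for *Ftl1* and -0.016 to 0.052 for *Pcbp1* in the interaction.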

Other observations

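Control APP/PS1 10, taken to be the library the study removed, held 3684 CPM of *Fth1*, 2179 CPM of *Ftl1*, 145 CPM of *Slc40a1*, 246 CPM of *Pcbp1*, 373 CPM of *Pcbp2*, 56.1 CPM of *Ncoa4* and 8.99 CPM of *Cp* on a scale over all 23 samples, and 0 counts of *Heph*. *Ncoa4* was lower and *Ftl1* and *Pcbp2* were higher than in the other 6 Control APP/PS1 libraries, and its length index over the 23 samples was -1.14. With it kept, the same 5 and 6 members passed in the comparisons of the genotypes.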
